A study of Danio rerio with 9 samples.

Results

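These data describe 5 zebrafish thyroid tumors in which BRAF(V600E), the constitutively active form of the serine/threonine kinase BRAF, was expressed from the zebrafish thyroglobulin promoter. They are all the libraries that carry this genotype, 5 of the 9 samples in the series, and the CCDC6-RET tumors that make up the rest were not analysed here. The libraries are called tumor 1, 2, 3, 6 and 7 after the numbers in their labels. Raw counts of these 5 libraries were scaled among themselves, and a gene was kept if it held 10 or more counts in at least 3 of them, which left 18460 of 27158 genes. Questions addressed were which genes the tumors transcribed most, which genes differed most between tumors of one genotype, and which genes followed or opposed tg, the thyroglobulin gene itself.

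The fish carried a Tol2 transposon insertion and were raised until a lesion in the thyroid region could be seen, when the tumor was taken and total RNA was extracted. The tg promoter drove the oncogene in all 5 tumors, so the transgene was tied to cells that use this promoter, and its own counts were not analysed here. The labels mark the fish as adult but give no age in days or months, sex, clutch or dissection for any single tumor, and they do not say whether each tumor came from a different fish. The spread between libraries therefore covers differences between tumors, between dissections and between library preparations together, and these cannot be told apart.

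The thyroid makes hormone by storing thyroglobulin in follicles, taking up iodide through the symporter slc5a5, and attaching iodine to thyroglobulin, for which the dual oxidase duox makes the oxidant. Transcription factors of the PAX, NKX2, FOXE and HHEX families keep this program on. BRAF(V600E) is the commonest oncogene of human papillary thyroid cancer, where it signals through MEK and ERK and is known for low expression of iodide-handling genes. Fish have no compact thyroid gland: their follicles lie scattered under the pharynx beside jaw cartilage, gill, muscle and large vessels, so a dissected lesion can hold those tissues too.

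Total counts were between 10656967 and 13354953 per library, and between 23453 and 23916 genes had at least 1 count. In a library of this depth 1 CPM (counts per 1000000 counts after scaling) corresponded to 10.6 to 13.6 counts, and 3 counts, taken here as the floor of detection, to 0.220 to 0.284 CPM. Mitochondrial transcripts took 4.58% to 5.74% of counts. Across genes, log2 CPM of any 2 libraries correlated with a Pearson's r of 0.947 to 0.966 over 18460 genes, which are not independent replicates. Of fish braf, ret, ccdc6a and ccdc6b, ret had the widest range and the fewest counts, 29 to 59 per library. braf was at 23.4, 25.5, 19.8, 27.0 and 26.4 CPM in tumors 1, 2, 3, 6 and 7. Fish ret was at 4.82, 4.92, 5.46, 3.59 and 2.27 CPM, ccdc6a at 52.2, 53.1, 57.6, 52.6 and 55.7 CPM and ccdc6b at 23.0, 18.3, 20.3, 20.4 and 21.7 CPM. Below, 5 values in a row are always CPM in tumors 1, 2, 3, 6 and 7, in that order.

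The most abundant transcripts came from mitochondria, keratin genes and tg. The 25 genes with the highest mean CPM took 14.3% ± 1.67 of all counts (SD, n = 5 tumors), from 12.5% in tumor 7 to 16.4% in tumor 2. CPM is a share of counts and is not divided by transcript length, so levels of different genes are not comparable per molecule, and a long transcript such as tg collects more reads than a short one. Subunit 1 of cytochrome c oxidase, mt-co1, ranked first at 19808, 19079, 17991, 17312 and 15668 CPM. The keratin krt5 ranked second at 14477, 20439, 16402, 14299.5 and 5153 CPM, with tumor 7 far below the rest. tg came next at 22409, 14161, 5604, 2552 and 7525 CPM. The keratins krt91, krt15 and krt4 also ranked among the 25, as did the actins actb1 and actb2, the translation factors eef1a1l2 and eef2b, the ribosomal proteins rps2, rpsa and rplp0, the chaperone hsp90ab1, the ADP/ATP carrier slc25a5 and apolipoprotein apoeb. Blood was represented by a beta-globin, hbba1 on chr3:54843971-54849708, and by si:ch211-5k11.8, whose human ortholog in the deposited table is the alpha-type globin HBZ. The remaining members were mt-co2, mt-co3, mt-cyb, mt-atp6, mt-nd4, the nucleoside diphosphate kinase nme2b.2 and CR318588.4, which has no ortholog in the table.

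These abundant genes fell into steady and unsteady ones. The steadiest of the 25 was eef2b, at 2777, 2965, 3073, 2668 and 2665 CPM, a spread of 1.15-fold from highest to lowest tumor. krt4 at 3839, 3939, 4102, 3555 and 4287 CPM and rps2 at 3123, 3542, 3256, 2953 and 3223 CPM were nearly as even. The widest was tg, with an 8.78-fold range. krt5 had a 3.97-fold range, which came to 1.43-fold without tumor 7. nme2b.2 was at 3526, 8828, 11158, 5021 and 3372 CPM, highest in tumor 3 and lowest in tumors 1 and 7. The globins hbba1, at 3834, 4085, 3329.8, 1436 and 7241 CPM, and si:ch211-5k11.8, at 3339.8, 3619, 2843, 1496 and 6393 CPM, were both highest in tumor 7 and lowest in tumor 6.

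Thyroid identity was checked next, gene by gene. Of 29 entries in a list of thyroid transcription factors, hormone-synthesis genes, deiodinases and thyroid hormone receptors, 25 matched a gene in the table and 19 were kept. tg, slc5a5, duox, duox2, IYD and tshr, which carry out and control hormone synthesis, had counts in every tumor. Summed CPM of the 19 members was 23148, 14564, 5947, 2805 and 8110.4, an 8.25-fold range that came to 3.89-fold without tumor 6 and 5.17-fold without tumor 1. tg made up nearly all of it. Without tg the other 18 members summed to 739, 403, 343, 254 and 585 CPM, a 2.91-fold range. Tumor 6 was lowest both ways, while tumors 2 and 7 changed places. In bulk tissue, fewer thyroid cells and less thyroid RNA per cell cannot be told apart.

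tg lies at chr16:31572835-31640844 (GRCz10) and encodes thyroglobulin, the protein on which hormone is built. Its 5 levels, 22409, 14161, 5604, 2552 and 7525 CPM, were apart by more than counting error at each of the 4 steps from highest to lowest: the exact 95% Poisson intervals of neighbouring tumors did not overlap. Such intervals cover counting error only. The SD of log2 CPM was 1.21, against a median of the trend, the running median SD of genes of like abundance, of 0.18 over 11064 genes at 10 CPM or more. The range came to 3.999-fold without tumor 6 and to 5.55-fold without tumor 1.

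**Figure D1:**
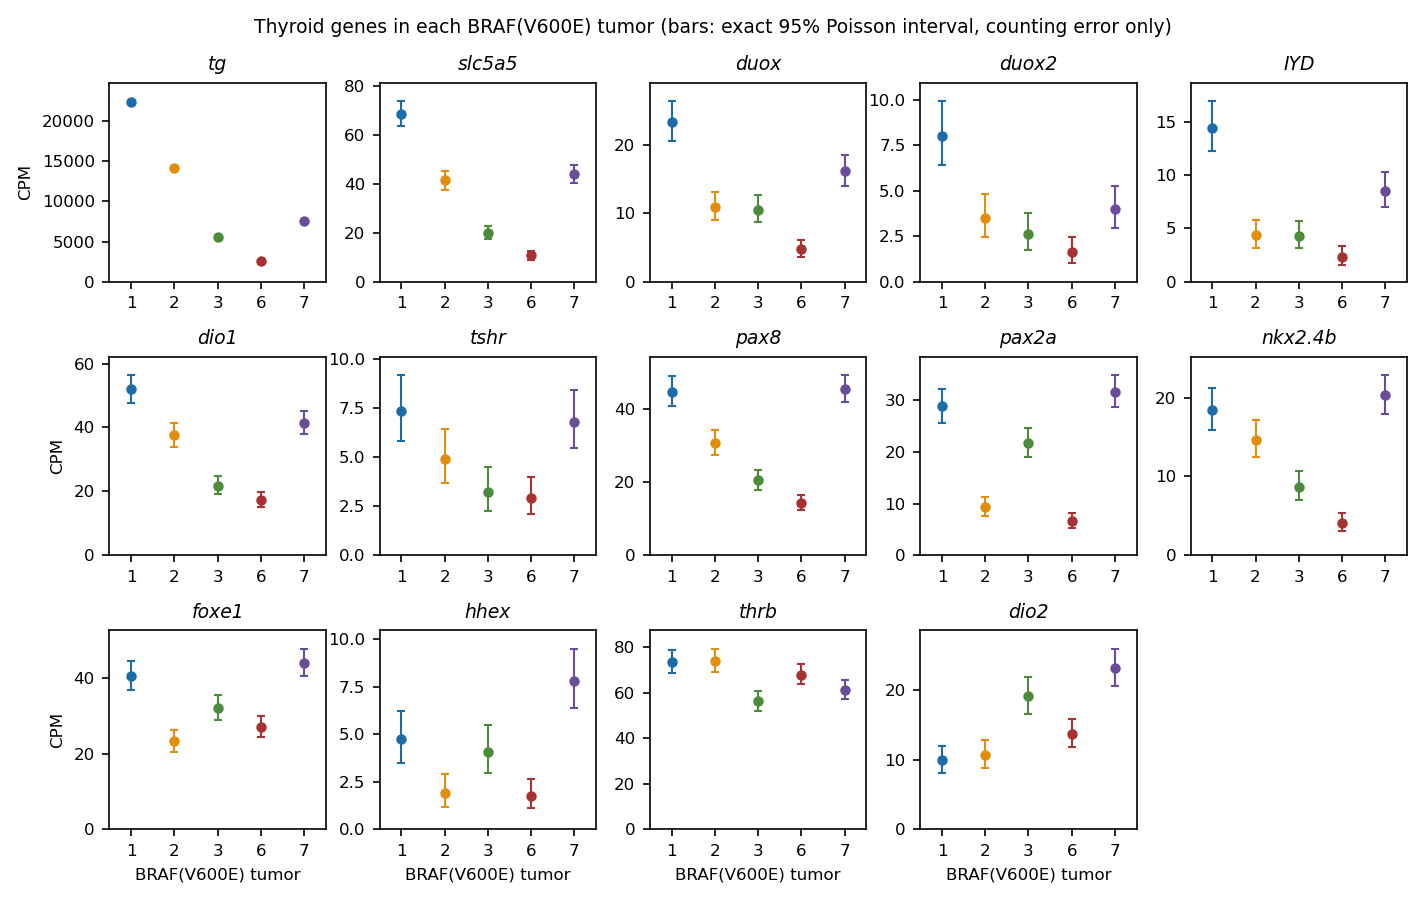
CPM (vertical axes, linear and starting at 0) of 14 genes of the thyroid list in each BRAF(V600E) tumor (horizontal axes). Points are single libraries and bars are exact 95% Poisson intervals, which cover counting error only. tg ran from 2552 CPM in tumor 6 to 22409 CPM in tumor 1, slc5a5 and duox shared tumor 1 as their highest tumor, transcription factors were highest in tumor 7, and thrb was nearly level.

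Most genes of hormone synthesis, and the deiodinases dio1 and dio3b, put the tumors in the order of tg with tumors 2 and 7 exchanged. Tumors 7 and 2 were apart by more than counting error for duox and IYD. They were not for slc5a5, duox2, tshr, dio1 and dio3b. The iodide symporter slc5a5 (chr8:13327245-13344646) was at 68.8, 41.4, 20.1, 10.7 and 43.9 CPM, a 6.42-fold range. It was lowest in tumor 6 and highest in tumor 1. The dual oxidases duox and duox2, which lie next to each other on chromosome 25, were at 23.3, 11.0, 10.6, 4.77 and 16.1 CPM and 8.03, 3.50, 2.59, 1.61 and 3.99 CPM. Iodotyrosine deiodinase IYD, which recovers iodide, was at 14.5, 4.35, 4.26, 2.35 and 8.53 CPM. The deiodinase dio1 was at 52.0, 37.5, 21.8, 17.4 and 41.3 CPM and dio3b, listed in the table as CT573065.1, at 39.3, 28.9, 20.2, 17.7 and 35.5 CPM. The TSH receptor tshr was at 7.37, 4.92, 3.24, 2.93 and 6.81 CPM, and none of its 4 steps was apart by more than counting error. The anion exchanger slc26a4, which can carry iodide, ran in the order 7, 1, 6, 3, 2, close to the floor at 1.32, 0.473, 1.02, 1.25 and 1.49 CPM and with none of its steps apart. For slc5a5 and duox 3 of the 4 steps were apart, the exceptions being tumors 2 and 3 for duox and tumors 7 and 2 for slc5a5. For IYD and dio1 2 steps were apart, and for duox2 and dio3b 1 step.

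The thyroid transcription factors were highest in tumor 7 rather than tumor 1, but tumors 7 and 1 overlapped within counting error for 4 of the 5. pax8 was at 44.8, 30.7, 20.6, 14.3 and 45.6 CPM. nkx2.4b, the fish gene that takes the thyroid role of mammalian NKX2-1, was at 18.4, 14.7, 8.70, 4.11 and 20.3 CPM. Both put tumors 2, 3 and 6 in the same falling order as tg. pax2a was at 28.8, 9.27, 21.7, 6.67 and 31.7 CPM, with tumor 3 above tumor 2, and foxe1 at 40.7, 23.3, 32.1, 27.1 and 44.1 CPM, the least variable of the group. hhex, which appears in the table as CABZ01079847.1, was at 4.72, 1.89, 4.07, 1.76 and 7.83 CPM, and its tumors 7 and 1 were apart. nkx2.1 held 6, 1, 1, 2 and 0 counts, nkx2.4a a single count in tumor 3, and glis3 no count in any library, which allows up to 0.220 to 0.284 CPM. Counts also stayed under 10 in at least 3 libraries for slc5a8l and cdh16.

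tg had a wider range than each of these transcription factors. The ratio of tg to pax8 CPM was 500.5, 461, 273, 178 and 165, so that tumors 1 and 2 had about the same ratio and tumors 6 and 7 the lowest. The ratio of tg to nkx2.4b was 1217, 966, 644, 621 and 371. Tumors 7 and 1 overlapped in pax8, while tg was at 7525 CPM in tumor 7 and 22409 CPM in tumor 1. The ratio of slc5a5 to pax8 was 1.54, 1.35, 0.977, 0.749 and 0.964.

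The hormone receptors and dio2 ran in other orders. The hormone receptors thrb at 73.6, 74.0, 56.2, 68.0 and 61.2 CPM and thrab at 3.12, 3.03, 3.98, 4.03 and 3.60 CPM were nearly level, and thraa at 18.1, 21.5, 16.6, 15.6 and 30.1 CPM was highest in tumor 7. The activating deiodinase dio2 was at 9.92, 10.6, 19.1, 13.7 and 23.2 CPM, highest in tumor 7 and lowest in tumor 1. Counted over the list, 14 of 19 kept members were lowest in tumor 6, 9 were highest in tumor 1 and 8 in tumor 7. Of all 18460 kept genes, 4015, 3231, 3466, 3124 and 4624 were highest in tumors 1, 2, 3, 6 and 7, and 3795, 3466, 3710, 3356 and 4133 were lowest there, and such counts below are read against these. A gene was called spread above the trend when the SD of its log2 CPM was at least 0.5 above the running median of genes at the same mean, which held for 1028 of 18460 genes (5.57%). It held for 8 of 19 thyroid members, among them tg, slc5a5, pax2a, nkx2.4b, IYD, duox and pax8. The count was 5 without tumor 6. The median SD over the list was 0.72, against 0.25 over all kept genes, the value that medians below are read against.

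Genes of the general secretory machinery, which are not particular to thyroid cells or to thyroglobulin, kept a narrow range. The list also holds transcription factors, with atf4a and atf4b among its most abundant members. In a list of 30 genes of the secretory machinery of the endoplasmic reticulum, summed CPM was 5408, 4825, 5511, 4949 and 5073, a 1.14-fold range, and 0 of 30 members were above the trend. The chaperone hspa5 was at 509.9, 487, 584, 459 and 528 CPM and hsp90b1 at 438, 354, 477, 381 and 422 CPM. The median SD of log2 CPM over the list was 0.13. The median difference of this SD from the trend was -0.02, so at like abundance these genes lay close to the trend.

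Across the whole transcriptome few genes ordered the tumors as tg did. With 5 tumors there are 120 possible orders, and each of them was taken by some genes, from 75 to 311 genes per order with a median of 144. The order of tg, tumors 1, 2, 7, 3 and 6 from high to low, was taken by 153 other genes (0.829% of those compared), and its exact reverse by 134 genes (0.726%). Both counts lie close to the median over orders. No correlation is given, since 5 libraries are too few. In most of these genes the order rested on differences within counting error: only tg and zgc:165423 had all 4 steps apart, as did stat1b and csrnp1b in the reverse order. Steps were looked at after the orders were known.

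**Figure D2:**
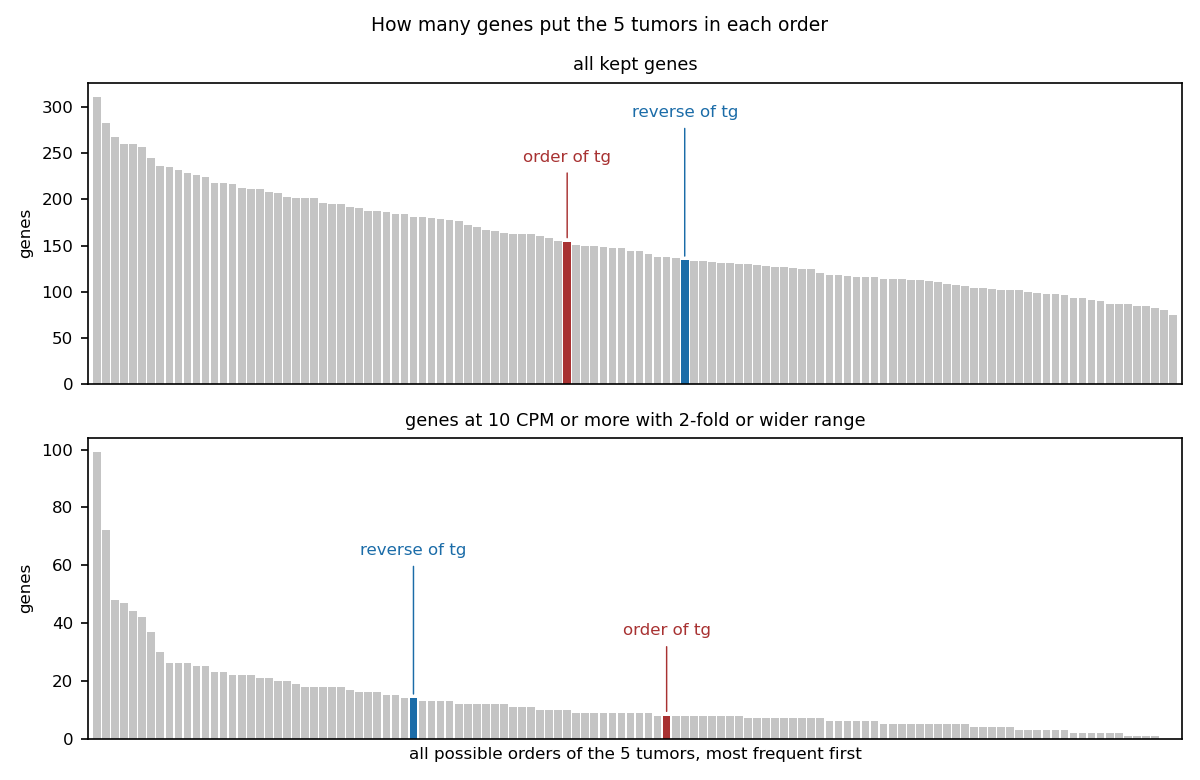
Number of genes (vertical axes) that put the 5 BRAF(V600E) tumors in each of the 120 possible orders (horizontal axes, most frequent first), for all kept genes (top) and for genes at 10 CPM or more with a 2-fold or wider range (bottom). The order of tg (red) and its reverse (blue) stand near the middle of the upper panel, and the lower panel is led by an order that 99 genes take.

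Among genes at 10 CPM or more with a log2 range of at least 1, which 1535 of 11064 genes had (13.9%), 7 shared the order of tg. The median over all orders was 9 such genes and the most was 99, so 7 is no more than an order usually holds. zgc:165423 (chr3:39398156-39408231), whose human ortholog in the table is the serine protease PRSS53, was at 1071, 573, 232, 171 and 519 CPM. It was the gene most like tg also by shape, with a root mean square difference of 0.33 from the centred log2 profile of tg, against a median of 1.098 over 11063 genes. The ferritin light chain ortholog zgc:194125 was at 51.8, 19.0, 11.6, 11.15 and 13.8 CPM, highest in tumor 1. The mitotic kinesin kif11 was at 17.5, 14.5, 9.07, 8.51 and 12.7 CPM and TMEM269 at 29.4, 20.7, 15.6, 10.4 and 20.2 CPM, both with narrower ranges. The other members were si:dkey-22i16.9 at 21.0, 19.5, 11.8, 7.19 and 12.5 CPM and zgc:123295, a further PRSS53 ortholog, at 47.0, 34.9, 31.6, 23.0 and 32.2 CPM, with 1 more clone-named gene.

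By shape rather than exact order, the genes nearest to tg included some known thyroid genes, but most of the 25 nearest were not in the thyroid list. This measure was added, and its genes were named, after the data were seen. After zgc:165423 came slc5a5, with a root mean square difference of 0.36, and then the glutathione transferase gstm.2, the peroxiredoxin prdx1, the claudin cldnc and the adrenomedullin-family gene adm2a. prdx1 was at 124, 52.6, 37.6, 23.0 and 34.2 CPM, cldnc at 66.6, 31.9, 17.6, 12.1 and 40.2 CPM and adm2a at 32.2, 21.6, 12.8, 5.72 and 26.5 CPM. In each of these the highest tumor was tumor 1 and the lowest tumor 6. gstm.2, at 40.9, 42.3, 20.9, 9.39 and 29.3 CPM, was about level between tumors 1 and 2. duox, nkx2.4b and dio1 were also among the 25 nearest genes, at ranks 12, 15 and 16. The thyroid list members pax8, pax2a, foxe1, dio3b, dio2, thraa and thrb, also at a mean of 10 CPM or more, were not.

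Genes in the reverse order were highest in tumor 6 and lowest in tumor 1. Of them 14 passed the same limits on level and range, against a median of 9 over all orders and a rank of 35 among them. The AP-1 transcription factor fosb had the widest range, at 9.92, 28.3, 60.4, 102 and 30.7 CPM, 10.31-fold from tumor 1 to tumor 6 and 3.62-fold without tumor 1. stat1b, which carries interferon signals, was at 46.8, 72.6, 98.7, 131 and 83.1 CPM, and the immediate early gene csrnp1b at 175, 194, 274, 374 and 250.3 CPM. The RNA helicase mov10b.1 was at 23.8, 39.2, 44.2, 68.6 and 43.2 CPM. si:dkey-91i10.3, with the sterol hydroxylase CYP27A1 as ortholog, was at 4.53, 8.23, 9.44, 41.9 and 9.08 CPM, and the transporter slc16a12b at 13.5, 15.3, 17.0, 49.5 and 15.7 CPM. In these last 2 genes tumor 6 alone was high. More gradual differences were seen in the retinol dehydrogenase rdh5 at 6.80, 12.96, 19.2, 25.4 and 13.9 CPM, a fucosyltransferase gene, the copy of FUT9 (1 of many) at chr8:3275959-3277524, at 4.53, 7.85, 16.8, 25.01 and 13.7 CPM and the amino acid transporter slc43a2a at 21.2, 22.8, 47.9, 58.6 and 33.7 CPM. The other members were stk35 at 12.2, 12.3, 16.5, 34.1 and 13.1 CPM, usp2b at 24.1, 29.3, 48.1, 51.5 and 31.8 CPM and the sodium pump subunit atp1a1a.5 at 7.94, 13.8, 17.0, 17.7 and 14.4 CPM, with 2 clone-named genes.

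Spread between tumors was larger than counting error for most genes. In a chi-square test of Poisson counts with Benjamini-Hochberg adjustment, counts of 12206 of 18460 genes (66.1%) differed between the 5 libraries. This test compares these libraries and no conditions. The common biological coefficient of variation, the SD between tumors as a fraction of the mean after counting error is removed, was 0.251. Between pairs of tumors it ran from 0.201 for tumors 2 and 6 to 0.279 for tumors 2 and 7. The share of genes 2-fold or more apart ran from 5.15% to 10.25% in the same pairs. A principal component analysis of log2 CPM placed tumors 1 and 7 apart from tumors 2, 3 and 6 on the first component, which held 31.9% of the variance, and tumors 1 and 2 apart from tumors 3 and 7 on the second, which held 29.7%.

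**Figure D3:**
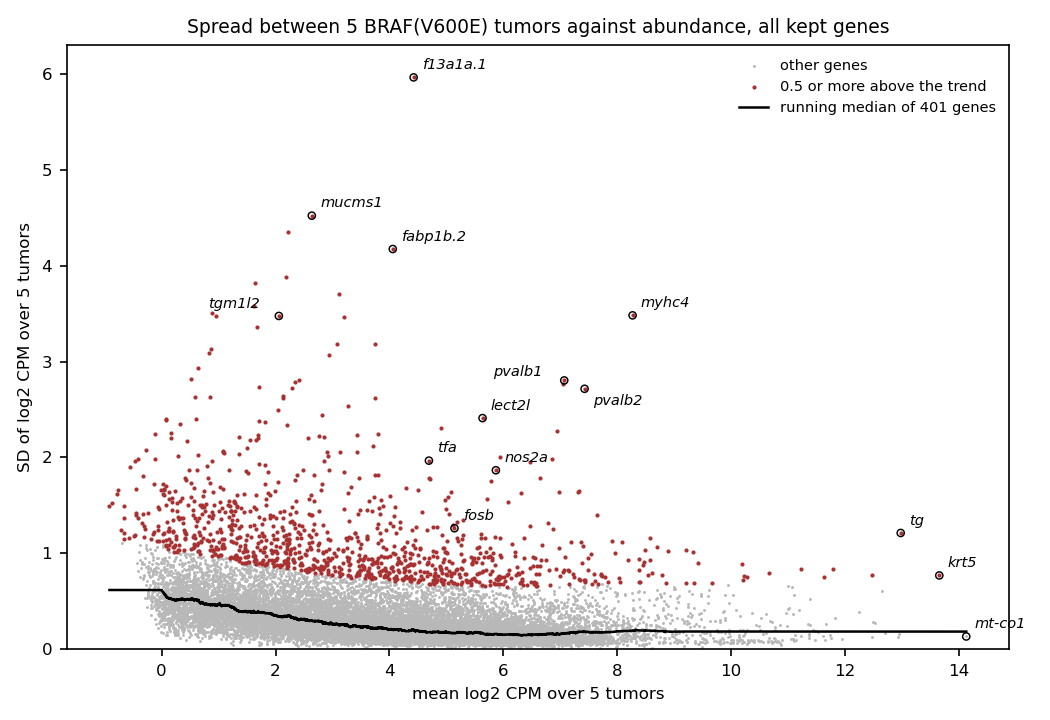
SD of log2 CPM over the 5 BRAF(V600E) tumors (vertical axis) against mean log2 CPM (horizontal axis) for 18460 genes, each point a gene. The black line is the running median of 401 genes, red points are the 1028 genes 0.5 or more above it, and circles mark named genes. f13a1a.1 has the largest excess over the line, myhc4 stands out at high abundance, tg and krt5 lie above it at the far right, and mt-co1 lies on it.

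At 10 CPM or more, 520 of 11064 genes (4.70%) were above the trend. Of these 520, 190 were highest in tumor 3, and the other tumors held 77 to 90 each. The lowest tumor was tumor 7 for 190 and tumor 1 for 137. The threshold cuts through related genes: just inside it were murcb, at 42.6, 79.6, 122, 75.2 and 42.3 CPM, with CR847936.1 and FO904917.1, and just outside it murca, at 14.5, 31.2, 44.7, 23.7 and 15.3 CPM, with hbaa2 and dhx58, all with an excess of 0.50 after rounding. Genes without a human ortholog in the table made up 28.7% of the 1028 genes above the trend and 12.9% of all kept genes. Gene families differed in the same count. Of genes with a myosin heavy chain ortholog 13 of 21 were above the trend, of the IFI44 family 7 of 13, of GIMAP genes 12 of 45 and of NOD-like receptor genes 23 of 111. Of ribosomal protein genes 0 of 96 were, and of ZNF genes 2 of 144. Members of large fish gene families share sequence, and how reads that fit several copies were counted is not stated, so values of single members are uncertain.

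The single most variable gene was f13a1a.1 (chr24:2499153-2519579), one of the fish genes for the A chain of coagulation factor XIII. It was at 387, 395, 547, 0.147 and 0 CPM, so it was abundant in tumors 1, 2 and 3, and tumors 6 and 7 held 2 counts between them. A second copy beside it, F13A1 (1 of many), was at 16.9, 14.8, 25.6, 0.0733 and 0 CPM and switched between the same tumors. fabp1b.2, a liver-type fatty acid binding protein, was at 91.4, 138, 199.5, 0.733 and 0.391 CPM and was also low in tumors 6 and 7. mucms1, at 94.4, 91.6, 0.0926, 23.5 and 0 CPM, was close to absent from tumors 3 and 7. The clone-named genes AL928650.3, at 0.0945, 0.0946, 87.1, 2.57 and 132 CPM, and si:dkey-79f11.7, at 43.3, 38.9, 0.185, 18.6 and 0 CPM, were likewise near 0 in some tumors and high in others.

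Other genes stood out in a single tumor. tgm1l2, a relative of the epidermal transglutaminase TGM1, was at 1.04, 0.851, 0.926, 286 and 3.05 CPM. Its 336-fold range came to 3.59-fold without tumor 6. A second gene carrying the symbol hbba1, at chr3:54843855-54844670, was at 276, 282, 233, 4.25 and 499.7 CPM, and tumor 6 held 4.25 CPM of it while the neighbouring hbba1 on the same chromosome was at 1436 CPM there. These models overlap, the first hbba1 also overlaps hbaa1, and si:ch211-5k11.8 lies inside hbaa1, so reads of these globins could be split between them. The zinc finger gene znf1179 was at 75.6, 2.08, 2.59, 56.6 and 2.90 CPM, high in tumors 1 and 6 only. lect2l, a fish gene related to the chemotaxin LECT2, was at 7.08, 9.08, 241, 169.6 and 109.9 CPM, low in tumors 1 and 2.

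Of the 35 lists, skeletal muscle had the most members above the trend, and it was also the largest list. By share, its 53.7% came after the 60% of the 5 kept thyroid transcription factors, and cartilage and bone stood at 50%. Summed CPM of the 54 kept members of a skeletal muscle list was 12574, 26869.9, 41595, 22475 and 14945, highest in tumor 3 and lowest in tumor 1, a 3.31-fold range that came to 2.13-fold without tumor 3. Of the members, 29 of 54 were above the trend, 39 of 54 were highest in tumor 3, 26 were lowest in tumor 1 and 27 in tumor 7. The median SD of log2 CPM was 0.71. The creatine kinases ckmb at 1194, 3418, 5065, 2477 and 1574 CPM and ckma at 954, 2186, 3370.3, 1705 and 931 CPM, the fast myosin light chain mylpfa at 1497, 2694, 4145, 2019 and 1377 CPM and the actin actc1b at 1681, 2498, 4053, 2045 and 1508 CPM were the most abundant members. All 4 had tumors 3, 2 and 6 as the 3 highest, in that order. In 46 of 54 members the highest tumor was under 7-fold above the lowest.

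In the other 8 muscle genes the range was over 15-fold, and tumor 1 was lowest in each of them. The fast myosin heavy chain myhc4 (chr5:31621602-31633709) was at 4.72, 354, 2404, 795 and 845 CPM, a 509-fold range that came to 6.80-fold without tumor 1. The calcium buffers pvalb1 and pvalb2 were at 4.35, 193, 607, 332 and 248 CPM and 6.42, 181, 401, 636 and 495 CPM, and the troponin tnni2b.2 at 11.05, 114, 176, 322 and 294 CPM. In all 4 of these, tumor 7 was among the 3 highest tumors, although tumor 7 was near the bottom for ckma and mylpfa. Their relatives pvalb3 and pvalb4, named after their values were seen, followed the wider group instead. pvalb3 was at 219, 832, 1486, 736 and 556 CPM and pvalb4 at 572, 1723, 2144, 1465 and 975 CPM. myha, in the same cluster of myosin genes on chromosome 5 as myhc4, was at 0.0945, 3.59, 162, 27.1 and 15.03 CPM.

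Muscle genes were part of the most common orders of tumors. Of the 1535 genes at 10 CPM or more with a 2-fold or wider range, 99 took the order 3, 2, 6, 1, 7 and 72 took the order 3, 2, 6, 7, 1. These were the most frequent orders, and together they held 11.14% of the wide genes. Muscle list members were 23 of these 171 genes and 45 of all 1535 wide genes. nme2b.2, among the 25 most abundant genes of all, took the first of these orders. Muscle values ran in a different order from tg, which was highest in tumor 1, where muscle was lowest, and the part of muscle RNA in the tg values was not tested.

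**Figure D4:**
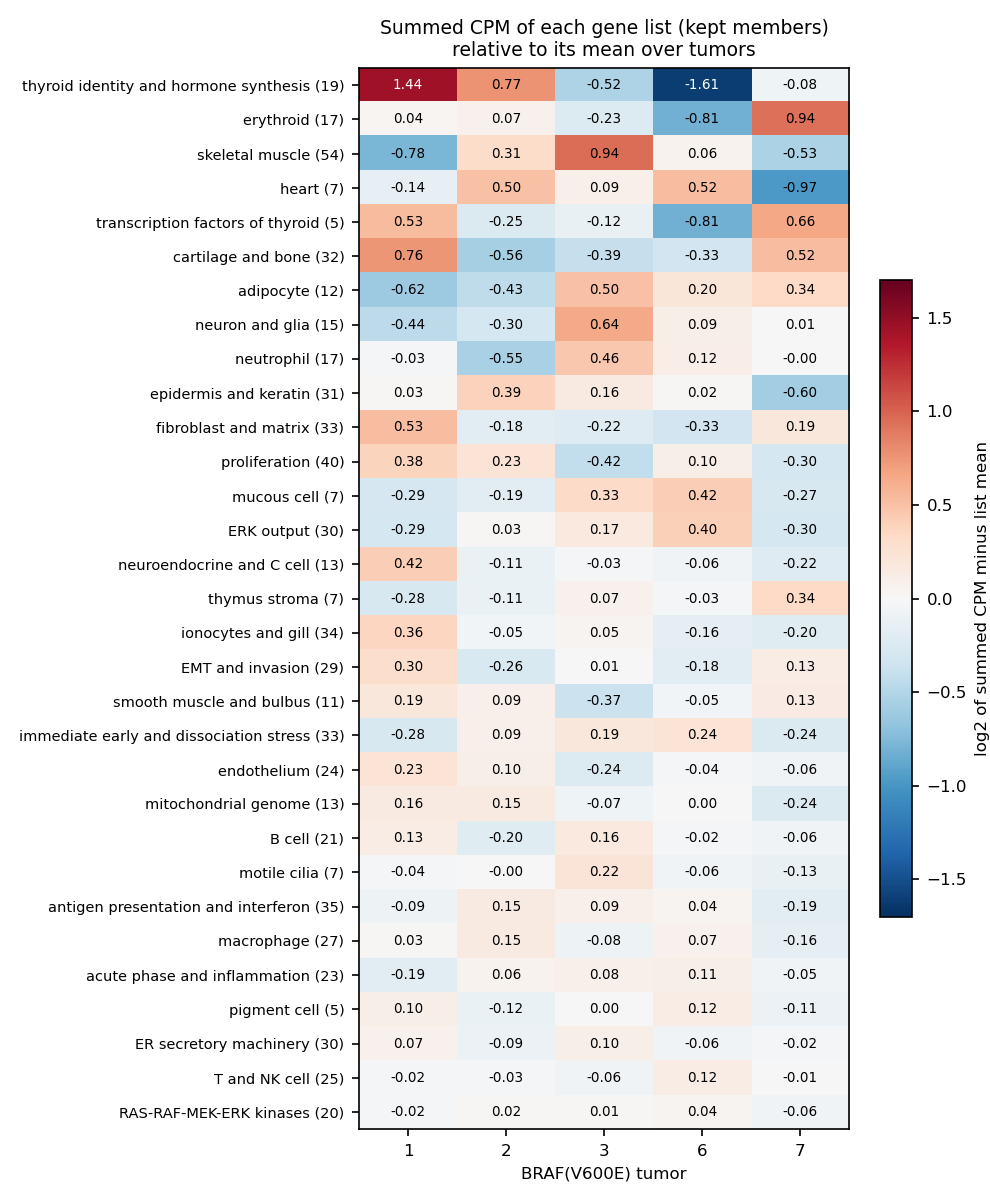
Summed CPM of the kept members of 31 gene lists (rows, number of members in parentheses) in each BRAF(V600E) tumor (columns), as log2 relative to the mean of the list over the 5 tumors, red above and blue below. Thyroid, erythroid, skeletal muscle, heart and cartilage lists vary most, and the RAS-RAF-MEK-ERK kinase, T and NK cell and secretory machinery lists vary least.

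Cartilage, bone and connective tissue genes were high in tumors 1 and 7. The 32 kept cartilage and bone members summed to 6130.5, 2454, 2774, 2888 and 5217 CPM, 16 of 32 were above the trend, and 22 were highest in tumor 1. The median SD was 0.73. The cartilage matrix proteins matn1 at 761, 131, 155, 189.6 and 502 CPM, col9a1a at 158, 24.0, 22.4, 39.6 and 80.6 CPM, acanb at 70.4, 14.8, 8.98, 24.3 and 61.8 CPM and epyc at 91.3, 13.6, 12.3, 21.3 and 56.7 CPM each had tumor 1 first and tumor 7 second. lect1, the chondromodulin gene, was at 77.7, 12.01, 11.7, 18.4 and 50.6 CPM. The fibroblast and matrix list, led by sparc at 3495, 2281, 1692, 1946 and 2684 CPM and col1a1a at 2968, 1749.8, 1807, 1463 and 2537 CPM, summed to 21414, 13132, 12785, 11798 and 16972 CPM. It had the same tumors on top but a narrower range, and 0 of 33 members were above the trend, with a median SD of 0.41. Tumor 1, with the highest tg, thus also had the highest cartilage and matrix sums, and their part in the tg values was not tested.

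Among the lists, epidermis and keratin held the largest sum of CPM after the mitochondrial genome. The 31 kept epidermal members summed to 41589, 53614, 45638, 41446 and 27051 CPM, lowest in tumor 7. krt5 at 14477, 20439, 16402, 14299.5 and 5153 CPM and krt91 at 6942, 9375, 7986, 6872 and 3154 CPM were lowest there, while krt4, a keratin of surface epithelia, was if anything highest in tumor 7 at 4287 CPM. The ratio of krt91 to krt5 was 0.480, 0.459, 0.487, 0.481 and 0.612. krtt1c19e, another epidermal keratin, was at 366, 272, 52.8, 187 and 139 CPM, lowest in tumor 3, and krt93 at 2.36, 13.9, 5.93, 11.5 and 2.90 CPM, higher in tumors 2 and 6. Of this list 6 of 31 were above the trend, and 3 without tumor 7, with a median SD of 0.43.

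Members of the gill, mucous cell and heart lists were present as well. The ionocyte and gill list summed to 7504, 5672, 6062, 5228 and 5087 CPM, led by the ammonia transporters rhcga at 2385, 1358, 1671, 1263 and 1410.1 CPM and rhbg at 1638, 1245, 877, 1088 and 1016 CPM. The calcium channel trpv6 was at 229, 88.8, 82.7, 58.2 and 38.6 CPM and the carbonic anhydrase ca15c at 288, 137, 134, 79.9 and 78.4 CPM, both highest in tumor 1 and lowest in tumor 7. Of the list 6 of 34 were above the trend, and 2 without tumor 7. The mucous list summed to 989.7, 1058, 1517, 1624 and 1004 CPM, led by the mucin muc5.1 at 771, 727, 1204, 1043 and 837 CPM. Its relative muc5.2 was at 63.7, 211, 92.1, 381 and 45.9 CPM and was high in tumors 2 and 6. The heart list was small, at 143, 224, 168, 227 and 80.4 CPM, with the troponin tnni1c at 50.5, 135, 58.0, 119 and 17.9 CPM and tnnt2a at 17.0, 41.6, 33.1, 28.9 and 6.11 CPM, both lowest in tumor 7. Only 7 of its 14 matched members were kept. Of these 7 members 2 were above the trend, 3 without tumor 1, 2 or 6, and 1 without tumor 7.

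Red cell transcripts separated tumors 6 and 7. The 17 kept erythroid members summed to 9709.7, 9941, 8067, 5392 and 18166 CPM, 16 of 17 were highest in tumor 7 and 12 of 17 were lowest in tumor 6. The range of 3.37-fold came to 1.84-fold without tumor 7. The heme enzyme alas2 was at 704, 679, 503, 371 and 1331 CPM and red cell carbonic anhydrase cahz at 776, 549, 591, 375 and 1092 CPM. The alpha-globin hbaa1 was at 2632, 2764, 2174, 1788 and 4696 CPM. hbba2, unlike both genes named hbba1, was not low in tumor 6, at 368, 441, 279, 461 and 1002 CPM. Of the list 4 of 17 were above the trend, 7 without tumor 1 or 2, and 2 without tumor 6 or 7, with a median SD of 0.58. Endothelial markers did not follow: the list summed to 1138, 1039, 824, 946 and 933 CPM and 0 of 24 members were above the trend, with cdh5 at 89.2, 79.0, 66.3, 62.8 and 75.2 CPM and vwf at 186, 199, 133, 156 and 167 CPM.

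The macrophage, T and NK cell and B cell lists were steady in sum. Of their members 1 of 27, 1 of 25 and 2 of 21 were above the trend, against 5.57% of all kept genes. The variable members named below were picked for the largest spread in their lists. Macrophage members summed to 9413, 10240.4, 8727, 9680.4 and 8289 CPM, T and NK cell members to 1203, 1194, 1171, 1327 and 1215 CPM, and B cell members to 706, 562, 722, 636 and 621 CPM. Such sums weigh abundant members most. The macrophage sum was led by apoeb, at 3759, 3631, 2895, 3392 and 3414 CPM, and by cd74a. gata3 led the T and NK cell list, and xbp1, also in the secretory machinery list, led the B cell list. Steady sums are therefore no measure of the numbers of these cells. The pan-leukocyte gene ptprc, which encodes CD45, was at 117, 134, 149, 137 and 139 CPM and the invariant chain cd74a at 2564, 3270.1, 2681, 3073 and 2325 CPM. The granulin gene grn1 of the macrophage list was at 3.50, 4.73, 2.31, 1.91 and 0.704 CPM, a 6.71-fold range that came to 2.48-fold without tumor 7. An immunoglobulin heavy chain gene listed as ighv1-4, whose reference symbol is ighm, was at 128, 10.31, 134, 128 and 134 CPM. Its 12.98-fold range came to 1.05-fold without tumor 2. ighz, which lies inside the model of ighv1-4, was at 7.27, 6.71, 5.93, 3.01 and 16.4 CPM, highest in tumor 7. T cell marker cd8a was at 9.16, 13.2, 10.4, 14.0 and 7.67 CPM, and the killer-cell granule gene nkl.4 at 8.69, 4.44, 1.76, 10.5 and 2.27 CPM, a 5.96-fold range.

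The neutrophil list was less even in sum, and its most variable member, lect2l, was at 7.08, 9.08, 241, 169.6 and 109.9 CPM. The list summed to 577, 402, 812, 638 and 588 CPM, a 2.02-fold range. lect2l alone held 241 of the 812 CPM in tumor 3 and 9.08 of the 402 CPM in tumor 2. The range of the sum thus rests in part on 1 gene, and the sum without lect2l was not taken. Of the members, 10 of 17 were highest in tumor 3, as were 3466 of all 18460 kept genes and 330 of the 1028 above the trend. Inducible nitric oxide synthase nos2a was at 89.4, 43.1, 183, 135 and 6.97 CPM, and irg1l, the itaconate enzyme of activated macrophages and epithelium, at 85.6, 33.6, 228, 134 and 16.2 CPM. Both were high in tumors 3, 6 and 1 and low in tumor 7. The interferon-induced GTPase mxc was at 13.8, 11.06, 83.5, 28.3 and 10.9 CPM. Of the antigen presentation and interferon list, 16 of 35 members were highest in tumor 3, but its sum was highest in tumor 2 and nearly even, at 10055, 11876, 11357, 10992 and 9369 CPM, as were its most abundant members, such as b2m at 2103, 2369, 2519, 2226 and 1954 CPM. The matrix metalloproteinases mmp9 at 135, 34.1, 115, 58.7 and 82.0 CPM and mmp13b at 128, 21.3, 73.7, 39.5 and 52.8 CPM were instead lowest in tumor 2. The acute phase and inflammation list had 8 of 23 members above the trend and summed to 3860.3, 4582, 4662, 4741 and 4241 CPM, highest in tumor 6.

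By the range of its sum, the RAS-RAF-MEK-ERK kinase list was among the steadiest. BRAF works in this pathway, and beside kinases the list also holds RAS genes, exchange factors, adaptors and phosphatases. At like abundance its members lay close to the trend, with a median difference in SD of -0.04. Members of the RAS-RAF-MEK-ERK kinase list summed to 920.3, 944, 939.8, 960.4 and 892 CPM, a 1.08-fold range, and 0 of 20 were above the trend, with a median SD of 0.13. The ERK gene mapk3 was at 133, 136, 151, 152 and 119 CPM and the MEK gene map2k2a at 132, 139, 131, 142 and 114 CPM. RNA levels of these genes say nothing about phosphorylation. The ERK output list, drawn up to hold genes that ERK signalling induces, summed to 3073, 3834, 4232, 4983 and 3052 CPM, highest in tumor 6, where tg was lowest. Of it 4 of 30 were above the trend, and 2 without tumor 1, with a median SD of 0.31. Its members ran in different orders: 11 were highest in tumor 6 and 8 in tumor 1, while 11 were lowest in tumor 1 and 11 in tumor 7. egr1 was at 502, 521, 877, 828 and 424 CPM, the phosphatase dusp5 at 44.9, 105, 104, 123 and 48.0 CPM and the AP-1 gene fosl1a at 12.9, 24.4, 90.1, 74.4 and 29.0 CPM, each lowest or second lowest in tumor 1. il1rapl1a, at 1.89, 12.9, 13.3, 2.42 and 3.13 CPM, was high in tumors 2 and 3 only.

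Immediate early genes overlap with ERK output and also respond to handling of tissue. This list summed to 7879, 10158, 10912, 11236 and 8061 CPM, with 12 of 33 members highest in tumor 6 and 10 in tumor 7. The lowest tumor was tumor 1 for 17 members and tumor 6 for 10, so the list was split in tumor 6. Of its members 7 of 33 were above the trend, with a median SD of 0.43. fosab was at 189, 382, 420.4, 630.4 and 232 CPM, junbb at 177, 349.6, 399.8, 477 and 235 CPM and btg2 at 674, 1054, 1087, 1297 and 748 CPM, all in the order 6, 3, 2, 7, 1. klf2a was at 1083, 1610.1, 1644, 1562 and 512 CPM, lowest in tumor 7. Among genes of the heat shock protein families, hsp70l was at 6.71, 18.4, 17.7, 7.77 and 34.9 CPM, highest in tumor 7. hsp90aa1.1 was at 9.92, 27.6, 54.5, 17.5 and 13.5 CPM, in the order 3, 2, 6, 7, 1. Of the skeletal muscle list, 12 wide genes took that order too. Both hsp70l and hsp90aa1.1 were lowest in tumor 1, and the constitutive hspa8 was even, at 2217, 2127, 2308, 1936 and 2272 CPM. fosb, which opposed tg, belongs to this list, and the part of tissue handling in its values was not tested.

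Most proliferation genes were lowest in tumor 3. The 40 kept proliferation members summed to 887, 795, 509, 729.9 and 553 CPM, with 26 of 40 lowest in tumor 3, 17 highest in tumor 1 and 20 highest in tumor 2. The median SD was 0.45. pcna was at 179, 149.8, 112, 133 and 112 CPM and mcm2 at 76.1, 54.6, 38.3, 59.3 and 40.7 CPM, while cdk1, at 9.07, 12.4, 3.15, 9.39 and 5.71 CPM, and plk1, at 5.38, 8.98, 2.31, 5.79 and 5.56 CPM, had wider ranges. Of the 40 only prc1a, at 2.83, 5.11, 1.11, 7.99 and 2.19 CPM, was above the trend, a share of 2.5% against 5.57% over all kept genes. The cyclin gene ccng1 was at 779, 799.6, 778, 612 and 805 CPM, lowest in tumor 6, and bbc3, which encodes a protein that promotes apoptosis, at 26.7, 16.6, 10.6, 28.01 and 22.3 CPM, lowest in tumor 3. The EMT and invasion list summed to 3566, 2428, 2923, 2553 and 3164 CPM, with the adhesion genes cdh1 at 348, 334, 474, 375 and 297 CPM and fn1b at 1051, 423, 705, 550.2 and 1047 CPM.

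The remaining lists covered other tissues. Lists of thymus stroma (1895, 2129, 2412, 2255 and 2902 CPM), smooth muscle (1235, 1156, 842, 1047 and 1190.2 CPM) and adipocytes (523, 597, 1136, 925 and 1018 CPM) had counts in every tumor. The most abundant thymus list members were ccl25b, cxcl12a and cxcl12b. ccl25a, a thymic chemokine, was at 45.7, 57.9, 77.2, 50.9 and 14.95 CPM, lowest in tumor 7, where the thymus sum was highest. fabp11a, a fat-cell lipid carrier, was at 145, 162, 471, 291 and 369.8 CPM. Neuron and glia members summed to 337, 372, 713, 489 and 461 CPM, highest in tumor 3, as was the myelin gene mpz at 52.99, 82.4, 193, 116 and 80.3 CPM. Neuroendocrine and C cell members summed to 174, 120.0, 127, 124 and 112 CPM, and calca, the calcitonin gene that marks C cells, was near the floor at 1.61, 0.851, 3.24, 1.1 and 1.49 CPM. Liver and plasma protein genes were nearly absent, with 4 of 22 matched members kept. Their sum of 164, 11.5, 59.3, 27.4 and 53.4 CPM came mainly from transferrin, tfa, at 156, 4.26, 39.8, 10.8 and 38.0 CPM. Motile cilia (202, 206, 242, 199 and 189.9 CPM), pigment cell (81.1, 69.8, 75.7, 82.3 and 70.29 CPM), germ cell (17.6, 14.7, 16.8, 14.7 and 15.7 CPM) and eye (3.12, 3.22, 2.22, 1.54 and 2.505 CPM) lists were low. The mitochondrial genome summed to 57765, 57579, 49293, 51775 and 43696 CPM, lowest in tumor 7 for 12 of its 13 genes.

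Scaled by total counts alone, which moved library scales by at most 0.070 on the log2 scale, the highest or the lowest tumor changed for several lists with narrow ranges, namely secretory machinery, ERK output (lowest), ERK-pathway kinases, smooth muscle, macrophage, B cell and neuroendocrine lists, and these changes of place are not read as differences.

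A last group of genes was present in some tumors and close to absent from others. A rule set after the data were seen took genes with 3 or fewer counts in at least 1 tumor and 10 CPM or more, at least 20-fold higher, in another, and 30 of 18460 genes met it (0.163%). The filter keeps genes seen in at least 3 tumors, so genes absent from 3 or more were not eligible. Tumor 2 lacked 11 of the 30, tumor 1 10, tumor 3 9, tumor 7 7 and tumor 6 5, some genes being near-absent from 2 tumors. No human ortholog was listed for 14 of the 30 (46.7%, against 12.9% of all kept genes), and 23 of the 30 carried clone-type symbols, against 20.3% of all kept genes.

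**Figure D5:**
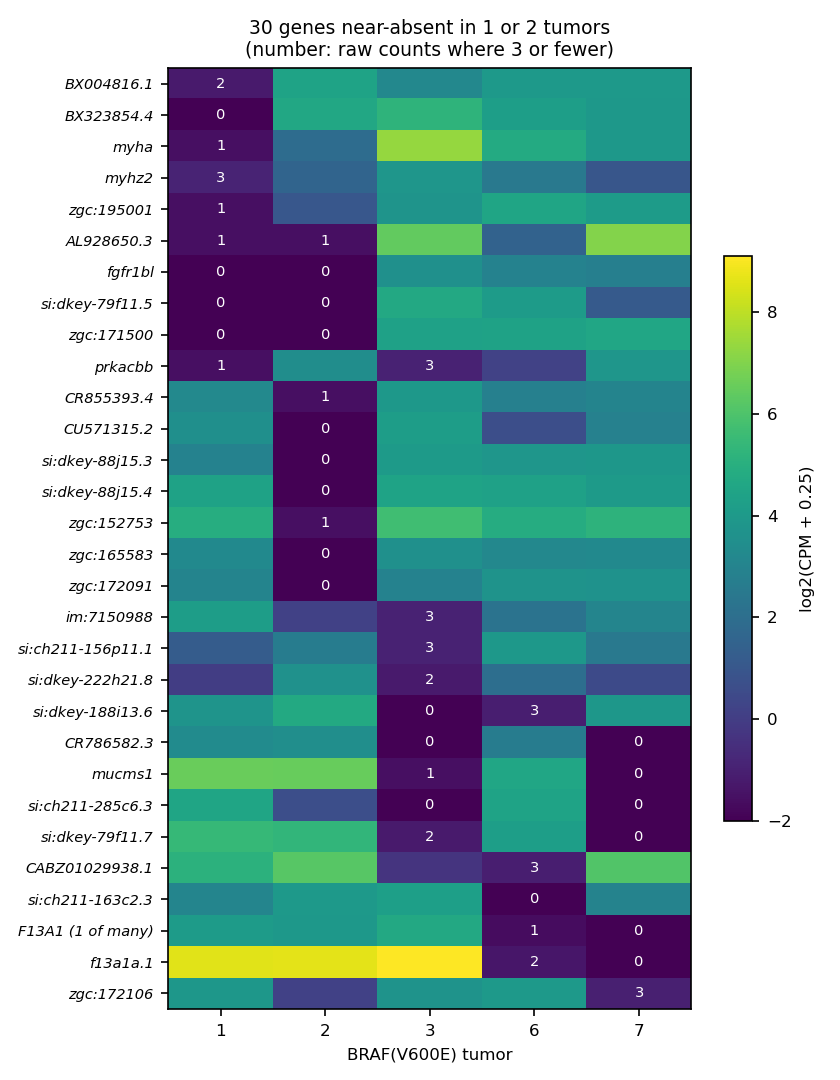
log2(CPM + 0.25) of the 30 genes near-absent from 1 or 2 BRAF(V600E) tumors (rows, gene symbols) in each tumor (columns), dark for low and bright for high. Numbers inside cells are raw counts of 3 or fewer. Genes are grouped by the tumors that lack them, and f13a1a.1 runs from 0 in tumor 7 to 547 CPM in tumor 3.

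Of the 30 genes 10 had a neighbour within 200 kb that was near-absent from the same tumors. On chromosome 3, the GIMAP-type immune GTPase genes zgc:152753, zgc:165583, si:dkey-88j15.3 and si:dkey-88j15.4, between 2452805 and 2611912 (GRCz10), were near-absent from tumor 2 alone. zgc:152753 was at 30.2, 0.0946, 51.6, 29.3 and 35.8 CPM, and the other 3 held no count in tumor 2. Against a floor of 3 counts in tumor 2, the mean of the other tumors was at least 69.5-fold higher for si:dkey-88j15.4 at 20.8, 0, 21.5, 20.2 and 16.4 CPM. It was at least 45.6-fold higher for si:dkey-88j15.3 and at least 34.5-fold higher for zgc:165583.

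On chromosome 22, zgc:171500 at 0, 0, 20.3, 20.6 and 23.2 CPM and its neighbour fgfr1bl at 0, 0, 11.8, 7.26 and 6.57 CPM held no count in tumors 1 and 2, while an adjoining gene with the same symbol fgfr1bl was detected in every tumor, at 5.38, 7.66, 6.48, 7.85 and 13.1 CPM. Against 3 counts over both tumors together, the mean of the other tumors was at least 151-fold higher for zgc:171500 and at least 60.2-fold higher for fgfr1bl. On chromosome 24, f13a1a.1 and F13A1 (1 of many) were near-absent from tumors 6 and 7. With 2 counts over both tumors, the ratio for f13a1a.1 was 5853, with a counting interval of 1620.3 to 48332. On chromosome 5, myha and myhz2, the neighbours of myhc4, were near-absent from tumor 1. The last gene with a known role to name here is prkacbb, a catalytic subunit gene of protein kinase A, at 0.0945, 10.6, 0.278, 0.880 and 13.8 CPM, which was above 10 CPM in tumors 2 and 7 alone. An adjoining gene with the same symbol was even, at 13.9, 9.65, 14.9, 12.8 and 10.25 CPM.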

How the data were processed

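RNA from 5 BRAF(V600E) thyroid tumors was sequenced on an Illumina HiSeq after TruSeq library preparation. Per the submitters' processing notes, the authors used STAR 2.3 and the GRCz10 build for alignment, and deposited raw counts per gene for each library. The methods of the study name a later STAR release, and the sources were not reconciled. No source states the counting tool, the use of strand or the annotation release. The same deposited table holds size-factor normalized values (unit signal, by DESeq2), and the authors' own comparison of CCDC6-RET with BRAF(V600E) tumors as log2 fold changes, a test statistic (score) and p-values. None of these was used.

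Counts of the 5 libraries were scaled by TMM (edgeR 4.0.16, R 4.3.3), and genes with at least 10 counts in at least 3 libraries were kept. CPM is counts per 1000000 kept counts after scaling, and log2 CPM used a prior count of 2. Spread above the trend is the SD of log2 CPM minus the running median over 401 genes of like abundance, held constant at both ends of the range, where tg and the most abundant genes lie. Libraries were compared gene by gene with a chi-square test of Poisson counts and Benjamini-Hochberg adjustment, and single values with exact 95% Poisson intervals. There is 1 group, so no conditions were tested. Of 897 entries in 35 gene lists, 851 matched a gene, 804 by the symbol in the table, 10 in other case and 37 by a symbol in the RefSeq table, 37 did not match, and 9 named a gene already in their list. The members and lists were chosen with earlier results of these data known.

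Genes named were the thyroid list, the 25 most abundant, the 25 with the largest excess of spread at 10 CPM or more, up to 20 in the order of tg and 20 in its reverse with a log2 range of at least 1, up to 4 members of each list by mean and 4 by spread, and braf, ret, ccdc6a and ccdc6b. Some genes and 1 list that this rule or the lists hold are not reported here. Clone-type symbols were named only where they ranked in the first 5. Likeness to tg, separated steps, near-absent genes and the thyroid list without tg were added after the data were seen. Genes named under them, with pvalb3, pvalb4, murcb, murca, mycb, spred2a and the genes at the threshold, were chosen after their values were seen. Alternatives were median-of-ratios factors, total counts alone, scaling without tg, other filters, a prior count of 0.5 and leaving out each tumor. The code was tested on simulated data.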

Additional observations from a re-analysis of the deposited data

Results flagged for a closer look

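In 15 of 279 named genes (5.38%) and 1 of 35 lists, a single tumor stood apart, with its gap to the nearest tumor taking more of the log2 range than Dixon's critical value of 0.71 for 5 samples. Chance flags about 1 in 20 groups taken without regard to their values. Many of these genes were named for their large spread, and genes can vary together, so this rate is only a rough guide here. Tumor 1 was the low one for nefla (gap 0.844 of the range), at 0.661, 3.50, 3.43, 3.30 and 2.74 CPM, pvalb1 (0.767), plaua (0.760), at 0.378, 1.61, 2.41, 1.61 and 2.19 CPM, and pvalb2 (0.725). Tumor 2 was low for ighv1-4 (0.982). Tumor 3 was low for ccdc40 (0.883), at 23.3, 23.1, 13.3, 23.2 and 24.8 CPM, and gata3 (0.741), at 397, 367, 233, 376 and 346 CPM. Tumor 6 was high for slc16a12b (0.822) and tgm1l2 (0.796) and low for ccng1 (0.875) and the hbba1 copy at chr3:54843855-54844670 (0.839). Tumor 7 was high for si:ch211-197g15.10 (0.714), at 81.6, 87.2, 74.8, 60.8 and 214 CPM, and low for mt-nd4 (0.783), krt5 (0.741) and krt91 (0.715). Among lists, the neuroendocrine and C cell sum was high in tumor 1 (0.712), just past the critical value. Of its 13 kept members only 2 were highest in tumor 1, and 7 were highest in tumor 3. CPM values are in the order of tumors 1, 2, 3, 6 and 7, and the cause was not tested.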

How the results depend on the processing

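With 1 tumor left out, only 24 orders of the remaining 4 are possible, so the order of tg was taken by 480 to 861 genes (153 with all 5) and its reverse by 525 to 792 genes (134 with all 5). Scaling by total counts alone gave 102 and 166 genes. The log2 of the highest over the lowest list sum, with each tumor left out in turn, ran from 1.96 to 3.04 for thyroid identity and hormone synthesis (3.04 with all), 0.063 to 0.12 for RAS-RAF-MEK-ERK kinases (0.11 with all), 1.09 to 1.73 for skeletal muscle (1.73 with all), 0.67 to 1.51 for heart (1.497 with all), 0.24 to 0.56 for smooth muscle and bulbus (0.55 with all), 0.37 to 0.996 for epidermis and keratin (0.99 with all), 0.26 to 0.58 for ionocytes and gill (0.56 with all), 0.51 to 0.86 for fibroblast and matrix (0.86 with all), 0.30 to 0.47 for endothelium (0.46 with all), 0.88 to 1.74 for erythroid (1.75 with all), 0.49 to 1.02 for neutrophil (1.01 with all), 0.053 to 0.19 for T and NK cell (0.18 with all), 0.23 to 0.36 for B cell (0.36 with all), 0.35 to 0.61 for thymus stroma (0.62 with all), 0.17 to 0.30 for acute phase and inflammation (0.30 with all), 0.55 to 1.09 for neuron and glia (1.08 with all), 0.17 to 0.65 for neuroendocrine and C cell (0.64 with all), 2.36 to 3.84 for liver and plasma protein (3.83 with all), 0.53 to 1.06 for eye (1.06 with all), 0.15 to 0.37 for motile cilia (0.35 with all), 0.23 to 0.42 for mitochondrial genome (0.40 with all), 0.90 to 1.46 for transcription factors of thyroid (1.47 with all). Scaled by total counts alone, this log2 range was 0.26 for T and NK cell genes, without a filter it was 0.56 for eye and 0.82 for germ cell genes, and it was 1.54 for the thyroid list without tg, a setting added after the data were seen. Counts beyond counting error, the biological coefficient of variation, the genes above the trend and the share of the 25 most abundant genes stayed within 1.5 times or 1 SD of their values under every setting run. Of 84 named genes above the trend, 82 stayed so with median-of-ratios factors, 79 with total counts alone, and 65 to 71 with a tumor left out. No paired analysis was possible because the 5 tumors form 1 group and no groups were compared. Levels per kilobase were not run, since no transcript lengths of the build of the files were used here. Near the floor of 3 counts, differences between tumors were not detectable at this depth.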
